A study of Mus musculus with 9 samples.

Results

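The 10 genes described here encode proteins that bring glucose into the cell and carry it to lactate, from the transporter *Slc2a1* through *Hk1*, *Hk2*, *Pfkl*, *Pfkp*, *Aldoa*, *Pgk1*, *Pkm* and *Ldha* to *Pdk1*, a kinase that keeps pyruvate out of the mitochondrial oxidation route. They were taken by symbol from a list, and the list holds 10 of the 55228 rows of the count table. All 10 passed the filter on low counts, with between 206 and 48784 counts per culture.

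RNA-seq was carried out on undifferentiated HC11 cells, an immortalized epithelial line from the mammary gland of a BALB/c mouse, to ask what changes when *Vangl2*, a gene for a transmembrane planar cell polarity protein, is edited. The 3 groups had 3 cultures each. *WT* is the parental line without an edit, and *KD1* and *KD2* are lines made by CRISPR/Cas9 with a guide of their own and a repair template that carries stop codons. All groups were grown in the same medium, in which serum (FBS) was 10%, EGF 10 ng/mL and insulin 5 µg/mL. The labels call the edited lines knockouts and the methods call them knockdowns.

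Each edited line was grown from a single colony, so the cultures of a line are repeats of 1 clone, and what the edit, the guide and the choice of the clone each contribute to a difference from *WT* cannot be told apart. No line taken through editing without a *Vangl2* guide was analysed here. Cultures are called biological replicates by the study, and how the cultures of a line were started is not given in the sources used here, so the p-values measure the spread between these cultures, which may be technical.

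Glycolysis splits glucose into pyruvate in the cytosol and yields ATP without oxygen. Its flux is held mainly at glucose entry, at the hexokinase step, which traps glucose as glucose phosphate, and at phosphofructokinase, which commits the sugar to breakdown. Pyruvate is then either reduced to lactate by lactate dehydrogenase or oxidized in the mitochondrion by the pyruvate dehydrogenase complex. The mammary epithelium draws heavily on glucose because it is also the precursor of lactose and of milk fat. HIF1, the hypoxia-inducible factor, and MYC are known activators of many genes of this pathway.

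Sequence upstream of the start is shown for the 5 genes that were lower in *KD2* in every fit (*Slc2a1*, *Hk2*, *Pfkp*, *Pgk1* and *Pdk1*) and for *Ldha*, which changed least in *KD1*, and this choice was made after the values were seen. Each line gives 250 bases 5′ to 3′ up to the first RefSeq start of the gene in GRCm38.p6. Capitals mark ACGTG or GCGTG, the core of the hypoxia response element, read on either strand, so that CACGT and CACGC are the same cores on the opposite strand. The 4 letters CGTG are common to both cores, and adjoining matches overlap.
Slc2a1, chr4:119108495-119108744, plus strand: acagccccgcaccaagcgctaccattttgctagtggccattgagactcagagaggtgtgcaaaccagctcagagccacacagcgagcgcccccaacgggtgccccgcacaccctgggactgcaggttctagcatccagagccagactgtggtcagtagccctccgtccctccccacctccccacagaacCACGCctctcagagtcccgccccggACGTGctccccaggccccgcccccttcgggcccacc
Hk2, chr6:82774455-82774704, minus strand: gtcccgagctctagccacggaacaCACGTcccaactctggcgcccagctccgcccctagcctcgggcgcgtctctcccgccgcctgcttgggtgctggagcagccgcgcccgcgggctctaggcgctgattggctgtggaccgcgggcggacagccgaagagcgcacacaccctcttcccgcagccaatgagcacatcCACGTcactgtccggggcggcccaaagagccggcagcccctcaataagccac
Pfkp, chr13:6648772-6649021, minus strand: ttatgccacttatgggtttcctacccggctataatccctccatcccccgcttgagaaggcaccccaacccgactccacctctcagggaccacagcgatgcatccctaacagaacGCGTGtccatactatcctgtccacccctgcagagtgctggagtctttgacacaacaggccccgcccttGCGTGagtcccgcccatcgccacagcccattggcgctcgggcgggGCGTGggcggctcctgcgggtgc
Pgk1, chrX:106186850-106187099, plus strand: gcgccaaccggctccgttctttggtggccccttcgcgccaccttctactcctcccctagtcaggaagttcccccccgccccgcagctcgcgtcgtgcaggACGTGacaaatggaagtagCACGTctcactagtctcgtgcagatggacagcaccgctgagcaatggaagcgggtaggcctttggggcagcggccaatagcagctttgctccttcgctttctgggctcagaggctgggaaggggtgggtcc
Ldha, chr7:46845554-46845803, plus strand: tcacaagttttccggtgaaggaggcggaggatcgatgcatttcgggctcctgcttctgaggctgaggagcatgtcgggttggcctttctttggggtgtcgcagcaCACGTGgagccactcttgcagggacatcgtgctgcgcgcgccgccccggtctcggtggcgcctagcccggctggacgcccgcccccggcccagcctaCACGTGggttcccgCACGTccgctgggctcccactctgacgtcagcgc
Pdk1, chr2:71872974-71873223, plus strand: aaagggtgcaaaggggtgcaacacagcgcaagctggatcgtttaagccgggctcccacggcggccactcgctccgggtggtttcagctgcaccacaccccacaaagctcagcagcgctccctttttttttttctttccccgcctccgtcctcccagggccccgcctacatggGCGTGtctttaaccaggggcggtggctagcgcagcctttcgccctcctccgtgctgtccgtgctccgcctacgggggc

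*Slc2a1* holds 2 cores, 31 and 56 bases before its start. *Hk2* and *Pgk1* also hold 2 cores each, *Pfkp* holds 3, *Pdk1* holds 1 and *Ldha* holds 5. The matches of *Ldha* include 2 copies of CACGTG, the E-box that MYC and its relatives bind, each of which is read as a core on both strands. All 10 genes were matched in the RefSeq table, with 16 starts, and 12 of the 16 upstream windows had at least 1 core. Of all 32851 windows of the same length in that table, 38.6% had at least 1 core and 6.02% had CACGTG. Windows of a gene are not independent, and overlapping windows of *Aldoa* hold the same match. Counted by gene, all 10 had a core in at least 1 window, where 41.5% of all genes in that table did. The shares over all genes were not matched for windows per gene or for base composition, and enrichment was not tested. The windows of *Slc2a1*, *Pfkp* and *Ldha* reach into the GENCODE span of the gene, which begins further upstream than the RefSeq start. A match is a run of letters and is no evidence that a factor was bound.

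Depth was 19231428 to 28360592 counts per culture, and levels are given as CPM, counts scaled to 1 TMM-adjusted library size for all cultures. *Vangl2* itself was at 2.48 ± 0.513 CPM in *KD1* and 4.00 ± 0.399 CPM in *KD2*. In *WT* it was at 3.85 ± 0.421 CPM (SD, n = 3 for each line). Its RNA was lower in *KD1* (log2 fold change -0.63, adjusted p = 0.0058) and did not pass the test in *KD2* (0.05, adjusted p = 0.81). From immunoblots, the authors report that the protein was greatly reduced in both edited lines. RNA counts do not measure that loss, so the RNA level in *KD2* is no evidence that the protein was kept. *WT* replicate 1 and *KD2* replicate 3 stood apart from the other cultures of their lines, with a chi-square per degree of freedom of 10.7 to 22.1 against them, where all other pairs within a line were at 1.37 to 3.38. The RNA comes from whole cultures, so fewer cells of a kind and less RNA per cell cannot be told apart in any value below.

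Of 7 markers of mammary epithelium, 6 were at 1 CPM or more in every line, and *Krt19* was at 0. Their summed level was 4818 to 5389 CPM in *WT*, 5464 to 5607 in *KD1* and 2873 to 3564 in *KD2*. Most of this sum was the basal keratins *Krt5* (2117, 2159 and 1088 CPM in *WT*, *KD1* and *KD2*) and *Krt14* (1527, 1405 and 819 CPM), both lower in *KD2* (-0.96 and -0.90, adjusted p = 1.3e-07 and 4.7e-07). The luminal keratin *Krt8* was higher in *KD2* (0.76, adjusted p = 7.4e-06), and *Krt18* was at 0.13 there (adjusted p = 0.16). In *KD1*, *Krt18* was higher (0.71, adjusted p = 2.8e-06) and *Krt8* was at 0.17 (adjusted p = 0.15). *Epcam* and *Cdh1* were lower in *KD2* (-0.36 and -0.69, adjusted p = 6.4e-04 and 5.3e-08). Both were higher in *KD1* (0.31 and 0.37, adjusted p = 0.0029 and 3.0e-05). The 3 adipocyte markers (*Adipoq*, *Plin1*, *Lep*) were at or under 3 counts, the floor used here, in every culture, as were *Ptprc*, *Cd3e* and *Cd79a* of the 5 leukocyte markers. The leukocyte list summed to 3.03 to 5.94 CPM in *WT*, 6.98 to 8.45 in *KD1* and 3.60 to 4.82 in *KD2*, nearly all of it *Cd68*, which was higher in *KD1* (0.89, adjusted p = 0.0016). The 4 endothelial markers summed to 2.05 to 2.49 CPM in *WT*, 4.87 to 5.51 in *KD1* and 1.43 to 2.10 in *KD2*, and *Pecam1*, most of the sum in *WT* and *KD1*, was higher in *KD1* (1.18, adjusted p = 6.8e-06) and lower in *KD2* (-1.23, adjusted p = 3.5e-05). The 4 fibroblast markers summed to 9.83 to 11.9 CPM in *WT*, 7.30 to 9.45 in *KD1* and 18.8 to 20.2 in *KD2*, where *Pdgfra* was higher (1.04, adjusted p = 1.9e-06). *Col3a1* did not rise in *KD2* (-0.17, adjusted p = 0.43). It was lower in *KD1* (-7.39, adjusted p = 4.9e-09), at or under the floor. *Dcn* and *Lum* were at or under the floor in *WT* and *KD1*. The part of these marker differences in the results below was not tested.

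The 10 genes changed differently in *KD1* and in *KD2*. In *KD1*, *Slc2a1*, *Hk2* and *Aldoa* rose and *Pfkp*, *Pgk1* and *Pkm* fell, by at most 1.57-fold. In *KD2*, *Slc2a1*, *Hk2*, *Pfkp*, *Pgk1* and *Pdk1* fell by between 1.78-fold and 2.88-fold, *Hk1*, *Pfkl* and *Ldha* fell by at most 1.21-fold, and *Aldoa* rose 1.15-fold. The plot of levels by culture and the plot of changes along the pathway show these values.

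**Figure D1:**
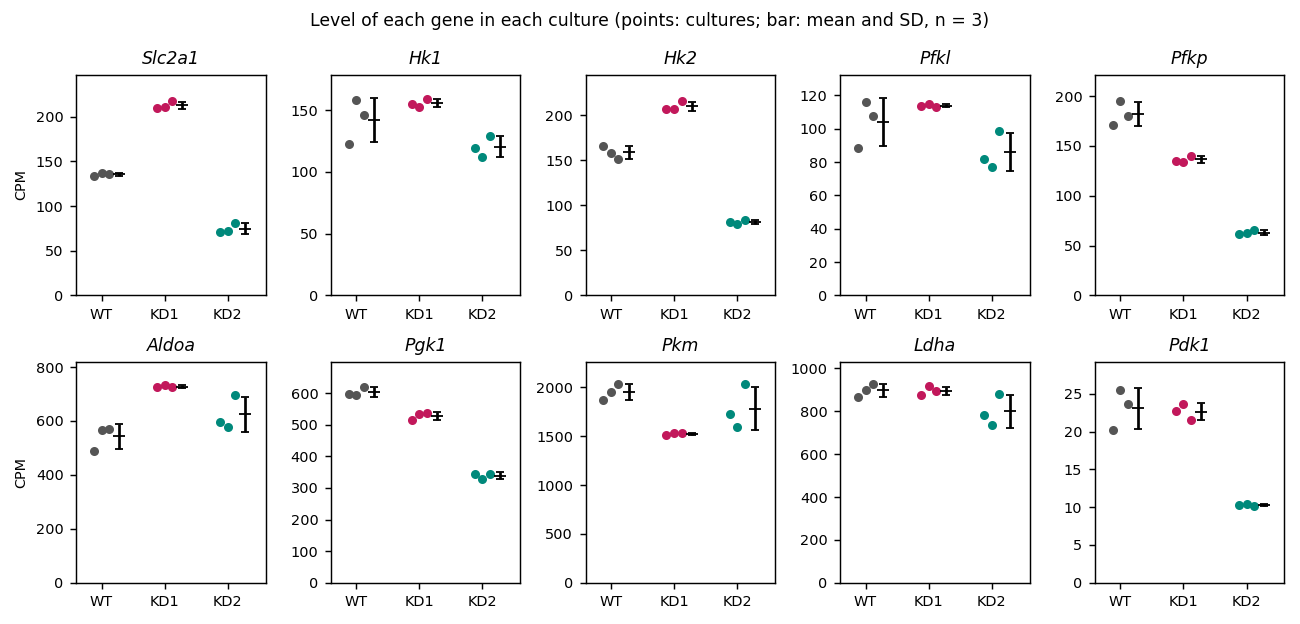
CPM (y axis, from 0) of each of the 10 genes in the 3 cultures of *WT*, *KD1* and *KD2* (x axis). Points are cultures and bars are the mean and SD. For *Slc2a1* and *Hk2* all *KD1* cultures lie above and all *KD2* cultures lie below the *WT* cultures, while *Ldha* cultures of the 3 lines overlap.

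**Figure D2:**
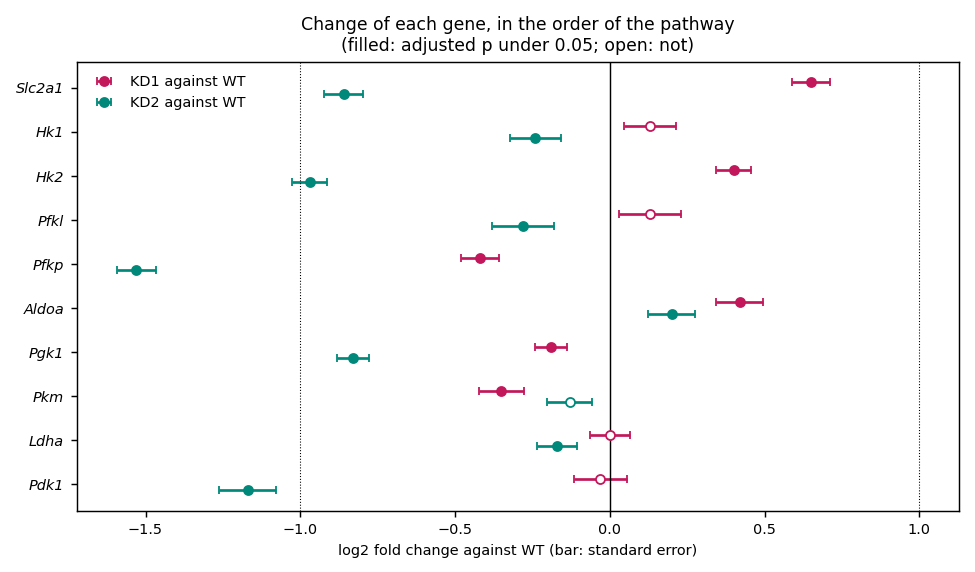
Log2 fold change against *WT* (x axis) of each gene in the order of the pathway (y axis), in *KD1* and *KD2*, with the standard error as bar and dotted lines at 2-fold. Filled points have an adjusted p under 0.05. *Pfkp* and *Pdk1* lie beyond the 2-fold line in *KD2*, and no gene does so in *KD1*.

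*Slc2a1* (chr4:119108711-119137983, plus strand of GRCm38) encodes GLUT1, the main glucose transporter of the plasma membrane in mammary epithelial cells. It was at 133, 137 and 136 CPM in the *WT* cultures, at 210.0, 211 and 217 CPM in *KD1* and at 70.5, 72.0 and 81.4 CPM in *KD2*. The 3 lines did not overlap, with *KD1* highest and *KD2* lowest. The rise in *KD1* was 1.57-fold (log2 fold change 0.65 ± 0.0612 SE, adjusted p = 6.2e-07). The fall in *KD2* was 1.82-fold (-0.86 ± 0.0625 SE, adjusted p = 3.6e-08). Between the edited lines *Slc2a1* differed 2.85-fold (-1.51 ± 0.0627 SE, adjusted p = 6.7e-11), the largest difference between *KD2* and *KD1* among the 10 genes.

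The hexokinases behaved unlike one another. *Hk2* (chr6:82725025-82774454, minus strand), the inducible, insulin-responsive hexokinase, was at 166, 158 and 152 CPM in *WT*, at 206, 207 and 216 CPM in *KD1* and at 81.2, 79.1 and 83.5 CPM in *KD2*. It followed the pattern of *Slc2a1*, with all *KD1* cultures above and all *KD2* cultures below those of *WT*. The rise in *KD1* was 1.32-fold (0.40 ± 0.0556 SE, adjusted p = 2.8e-05) and the fall in *KD2* was 1.95-fold (-0.97 ± 0.0568 SE, adjusted p = 4.8e-09). *Hk1* (chr10:62268855-62379908, minus strand), the hexokinase found in most tissues, was at 123, 158 and 146 CPM in *WT*, at 155, 153 and 159 CPM in *KD1* and at 120, 112 and 129 CPM in *KD2*. *WT* replicate 1 lay within the range of *KD2*, and the *WT* cultures also overlapped those of *KD1*. *Hk1* did not pass the test in *KD1* (0.13 ± 0.0826 SE, adjusted p = 0.21) and was 1.19-fold lower in *KD2* (-0.24 ± 0.0830 SE, adjusted p = 0.018). The call in *KD2* was lost in 5 of the 17 alternative fits described under the processing, for example with library size alone (-0.13, adjusted p = 0.17).

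The ratio of *Hk2* to *Hk1*, taken within each culture as CPM per kb of exon so that library scaling cancels, was 1.93, 1.43 and 1.48 in *WT*, 1.90, 1.94 and 1.94 in *KD1* and 0.972, 1.01 and 0.923 in *KD2*. The *KD2* cultures all lay below every other culture, by 1.66-fold against *WT* and 1.99-fold against *KD1*, and *KD1* overlapped *WT*. In exact two-sided permutation tests of 3 against 3 cultures, whose smallest p is 0.1, p was 0.1 for *KD2* against *WT*, 0.1 for *KD2* against *KD1* and 0.2 for *KD1* against *WT*. The level of the ratio depends on the length taken for each gene, and the fold between lines does not.

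The phosphofructokinase genes among the 10 are *Pfkl* (chr10:77986947-78010083, minus strand), the liver-type subunit, and *Pfkp* (chr13:6579768-6648777, minus strand), the platelet-type subunit. Another phosphofructokinase gene, *Pfkm*, is outside the 10 and is given after its values were seen. It was at 42.5 ± 5.05 CPM in *WT*, 43.1 ± 0.227 in *KD1* and 60.4 ± 6.46 in *KD2*. *Pfkm* was higher in *KD2* (0.50, adjusted p = 2.1e-04) and at 0.02 in *KD1* (adjusted p = 0.88). *Pfkp* was at 171, 195 and 180.0 CPM in *WT*, at 135, 134 and 140.3 CPM in *KD1* and at 61.6, 62.2 and 65.7 CPM in *KD2*. It was lower in both edited lines without any overlap. The fall was 1.33-fold in *KD1* (-0.42 ± 0.0608 SE, adjusted p = 4.8e-05) and 2.88-fold in *KD2* (-1.53 ± 0.0629 SE, adjusted p = 1.6e-10), the largest change of the 10 genes against *WT*. *Pfkl* was at 88.3, 116 and 108 CPM in *WT*, at 114, 115 and 113 CPM in *KD1* and at 82.1, 77.0 and 98.8 CPM in *KD2*. The *WT* cultures overlapped those of each edited line, with *WT* replicate 1 low and *KD2* replicate 3 high within their groups, while all *KD2* cultures lay below all *KD1* cultures. *Pfkl* did not pass the test in *KD1* (0.13 ± 0.0998 SE, adjusted p = 0.29) and was 1.21-fold lower in *KD2* (-0.28 ± 0.101 SE, adjusted p = 0.025), a call lost in 7 of the 17 alternatives.

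Within each culture the ratio of *Pfkp* to *Pfkl*, which leaves out *Pfkm*, was 0.965, 0.836 and 0.833 in *WT*, 0.592, 0.582 and 0.618 in *KD1* and 0.374, 0.402 and 0.331 in *KD2*. The lines did not overlap, and compared with *WT* the ratio was down 1.47-fold in *KD1* and 2.38-fold in *KD2*. The exact two-sided permutation p was 0.1 for each of these comparisons and 0.1 between the edited lines. Some *Pfkp* reads may belong to *Pitrm1*, which overlaps it by 748 bases on the opposite strand, and whether the counting used strand is not given in the sources used here.

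**Figure D3:**
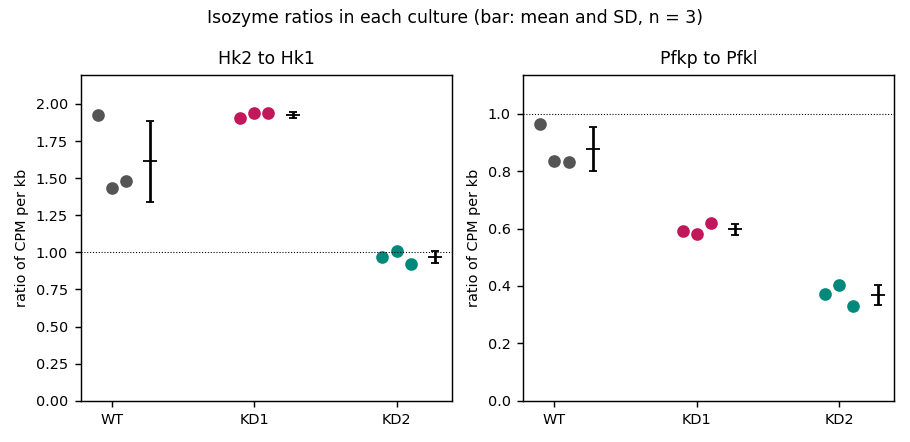
Ratio of *Hk2* to *Hk1* and of *Pfkp* to *Pfkl* (y axis, CPM per kb of exon) in each culture of *WT*, *KD1* and *KD2*, with mean and SD as bar and a dotted line at 1. The *Hk2* to *Hk1* ratio of *KD2* lies near 1 and below all other cultures, and the *Pfkp* to *Pfkl* ratio is highest in *WT* and lowest in *KD2*.

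*Aldoa* (chr7:126795234-126800751, minus strand), the aldolase that splits the 6-carbon sugar, was the only one of the 10 genes that was higher than *WT* in both lines. It was at 490.4, 566 and 572 CPM in *WT*, at 725, 733 and 725 CPM in *KD1* and at 597, 578 and 698 CPM in *KD2*. All *KD1* cultures lay above the others, and the *KD2* cultures lay just above those of *WT*. The rise was 1.34-fold in *KD1* (0.42 ± 0.0757 SE, adjusted p = 2.8e-04) and 1.15-fold in *KD2* (0.20 ± 0.0757 SE, adjusted p = 0.03). The call in *KD2* was lost in 3 of the 17 alternatives. The difference was 0.21 with only the 6 cultures compared (adjusted p = 0.063), 0.13 without *WT* replicate 1 (adjusted p = 0.15) and 0.04 without that culture and *KD2* replicate 3 (adjusted p = 0.32). GENCODE holds 2 entries named *Aldoa*, both on chromosome 7, and the table does not say which of them its row counts. The position given is that of the longer entry in exon bases.

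*Pgk1* (chrX:106187100-106203699, plus strand), whose enzyme makes the first ATP of the pathway, was lower in both lines. Its level was 599, 593 and 621 CPM in *WT*, 514, 533 and 537 CPM in *KD1* and 344, 327 and 346 CPM in *KD2*. The lines did not overlap. The fall was 1.14-fold in *KD1* (-0.19 ± 0.0508 SE, adjusted p = 0.0049) and 1.78-fold in *KD2* (-0.83 ± 0.0513 SE, adjusted p = 7.2e-09). Of the windows of 50 bases in its exons, 53.9% also occur in other genes, mostly processed copies such as *Pgk1-rs7*, so part of its reads could have been discarded or counted elsewhere.

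*Pkm* (chr9:59656368-59679375, plus strand) encodes the muscle-type pyruvate kinase, which makes pyruvate, and gene counts do not separate its spliced forms. It was at 1869, 1951 and 2030 CPM in *WT*, at 1515, 1536 and 1529 CPM in *KD1* and at 1726, 1595 and 2030 CPM in *KD2*. The *KD1* cultures lay below all others, and *KD2* replicate 3 reached the highest *WT* culture. The fall in *KD1* was 1.28-fold (-0.35 ± 0.0733 SE, adjusted p = 9.3e-04). In *KD2* the difference did not pass the test (-0.13 ± 0.0732 SE, adjusted p = 0.14), but it did without *KD2* replicate 3 (-0.21, adjusted p = 0.00037). *Pkm* shares 25.8% of its windows with other genes, among them *Gm49759*, which overlaps it on the same strand.

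*Ldha* (chr7:46841475-46855627, plus strand), which reduces pyruvate to lactate, was at 867, 900.1 and 925 CPM in *WT*, at 878, 916 and 892 CPM in *KD1* and at 782, 734 and 882 CPM in *KD2*. The groups overlapped in every comparison. The difference from *WT* was 0.00 ± 0.0643 (log2 fold change and SE, adjusted p = 0.97) in *KD1*. In *KD2*, *Ldha* was 1.12-fold lower (-0.17 ± 0.0643 SE, adjusted p = 0.033), a call lost in 7 of the 17 alternatives.

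*Pdk1* (chr2:71873224-71903858, plus strand), a kinase that switches off pyruvate dehydrogenase, was the least abundant of the 10 genes. It was at 20.2, 25.5 and 23.6 CPM in *WT*, at 22.7, 23.7 and 21.5 CPM in *KD1* and at 10.2, 10.4 and 10.1 CPM in *KD2*. *KD1* lay within the range of *WT*, and all *KD2* cultures lay well below. *Pdk1* did not pass the test in *KD1* (-0.03 ± 0.0855 SE, adjusted p = 0.78) and was 2.25-fold lower in *KD2* (-1.17 ± 0.0919 SE, adjusted p = 7.9e-08).

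In *KD1*, 3 of the 10 genes were higher at an adjusted p under 0.05, where 26.9% of all 15253 genes tested were, and 3 were lower, where 30.0% of all genes were. None was changed by over 2-fold as well, against 9.34% of all genes higher and 7.49% lower. The median log2 fold change of the 10 genes was 0.06, and that of all genes was -0.03. In number of calls the 10 genes were thus near the background of this line.

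In *KD2*, 1 gene was higher, where 34.0% of all genes were, and 8 were lower, where 33.3% of all genes were. Over 2-fold, 2 genes were lower (*Pfkp* and *Pdk1*), where 6.71% of all genes were, and 0 were higher, where 14.5% of all genes were. The median of the 10 genes was -0.56, beside 0.01 over all genes. The count of 8 lower genes fell to 5 in 5 of the 17 alternatives (library size alone, at least 10 counts in every culture, and without *KD2* replicate 2, *WT* replicate 2 or *WT* replicate 3), with *Slc2a1*, *Hk2*, *Pfkp*, *Pgk1* and *Pdk1* left each time. Without both cultures that stood apart it was 9, and no gene was higher.

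Tested against each other, *KD2* was lower than *KD1* in 9 of the 10 genes, where 33.0% of all genes were, and higher in *Pkm* alone, where 34.8% of all genes were. The difference exceeded 2-fold downward for *Slc2a1*, *Hk2*, *Pfkp* and *Pdk1*, where 8.58% of all genes did so, and upward for none, where 14.7% of all genes did so. The median of the 10 genes was -0.52, beside 0.02 over all genes. Both comparisons with *WT* use the same *WT* cultures, so the 2 values of a gene against *WT* are not independent.

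Together the 10 genes took 0.441% to 0.479% of all counts in *WT*, 0.435% to 0.442% in *KD1* and 0.386% to 0.468% in *KD2*. The shares of *KD2* overlapped those of the other lines through *KD2* replicate 3. Per kb of exon, *Pkm* was the most abundant in *WT* (390 ± 16.2 CPM per kb, SD, n = 3). *Ldha* (271 ± 8.85) and *Pgk1* (269 ± 6.61) followed and did not differ beyond their spread. *Aldoa* was at 186 ± 15.6, *Slc2a1* at 38.6 ± 0.580 and *Hk2* at 26.6 ± 1.19 CPM per kb. *Hk1* (16.7 ± 2.09), *Pfkl* (15.6 ± 2.13) and *Pfkp* (13.6 ± 0.892) overlapped, and *Pdk1* was lowest at 2.97 ± 0.346. In *KD2*, *Pgk1* at 151 ± 4.46 CPM per kb lay below *Aldoa* at 215 ± 22.1, and *Hk2* (13.6 ± 0.367), *Hk1* (14.1 ± 0.991) and *Pfkl* (12.9 ± 1.71) did not differ beyond their spread. With the longest transcript as length, *Aldoa* (350 CPM per kb) came before *Pgk1* (331) and *Hk1* (33.3) before *Hk2* (28.8) in *WT*. *Ldha* was then at 494.5 CPM per kb in *WT*, well above *Pgk1*. In *KD2*, *Hk2*, *Hk1* and *Pfkl* were then at 14.7, 28.1 and 23.0 CPM per kb. The ties given per kb of exon thus depend on the length taken.

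In clones, whole chromosomes can shift together, so each gene was set beside all tested genes of its chromosome. In *KD2* against *WT* the median of the 591 tested genes of chromosome 13, which holds *Pfkp*, was -0.66, and that of the 449 genes of chromosome X, which holds *Pgk1*, was -0.63. The 6 other chromosomes with a member had medians between -0.15 and 0.23. Less its chromosome's median, the change of *Pfkp* was -0.87 and that of *Pgk1* was -0.20. Their ranks within their chromosomes, which this subtraction cannot change, were the 4.9th percentile for *Pfkp* and the 33.2nd for *Pgk1*. *Slc2a1* (5.5th percentile, chromosome 4), *Hk2* (4.0th, chromosome 6) and *Pdk1* (3.9th, chromosome 2) lay among the lowest genes of chromosomes whose medians were 0.14 to 0.23. The same shift was found against *KD1*, with medians of -0.61 on chromosome 13 and -0.53 on chromosome X. The part of these shifts in the values of *Pfkp* and *Pgk1* was not tested.

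**Figure D4:**
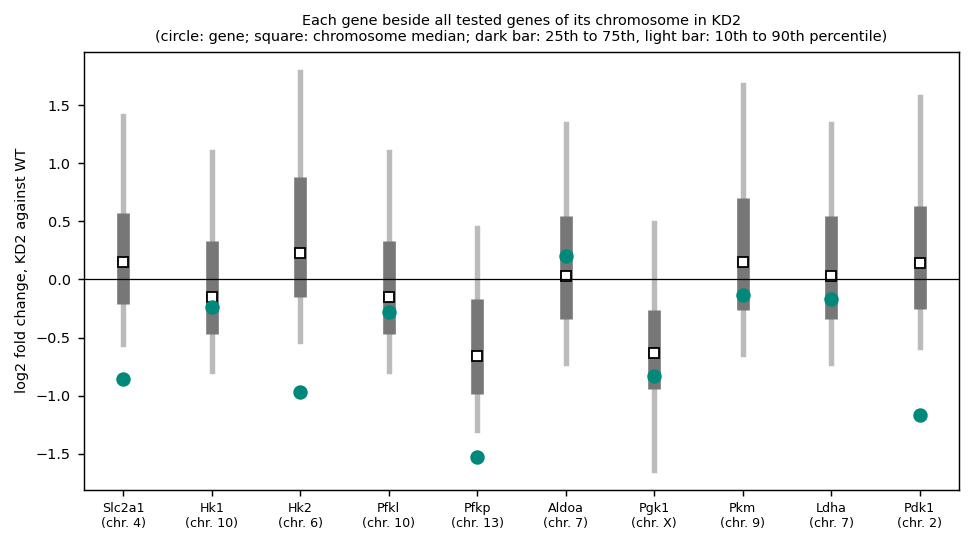
Log2 fold change of each gene in *KD2* against *WT* (y axis, circles) beside the median (squares) and the 25th to 75th (dark bars) and 10th to 90th percentiles (light bars) of the tested genes of its chromosome (x axis). *Pgk1* lies within the dark bar of chromosome X, whereas *Slc2a1*, *Hk2*, *Pfkp* and *Pdk1* lie below the light bars of theirs.

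Among the other enzymes of glycolysis, several isozymes that were scarce in *WT* rose in *KD2*. Of 20 such genes 13 were tested. In *KD1*, 6 were higher and 3 lower, with a median of 0.25, and in *KD2*, 8 were higher and 1 was lower, with a median of 0.50. *Gapdhs*, higher in *KD2*, had 8 counts or fewer in each *WT* culture and passed the filter on low counts only through *KD2*. The counts of this list and of those that follow stand beside large shares of all tested genes, of which 26.9% were higher and 30.0% lower in *KD1* and 34.0% and 33.3% in *KD2*, with medians of -0.03 and 0.01. *Gpi1*, *Tpi1*, *Gapdh*, *Pgam1* and *Eno1* each differed from *WT* by at most 0.32 on the log2 scale in both lines. *Gpi1*, which turns glucose phosphate into fructose phosphate, was higher in both lines (0.25 and 0.24, adjusted p = 0.0071 and 0.0077). *Tpi1*, the triose phosphate isomerase, was higher in *KD1* (0.27, adjusted p = 0.015) and at 0.15 in *KD2* (adjusted p = 0.15). The call in *KD1* was lost without *WT* replicate 1 (0.18, adjusted p = 0.069). *Gapdh* was at -0.19 in *KD1* (adjusted p = 0.087) and lower in *KD2* (-0.23, adjusted p = 0.034), and the latter call was lost in 8 of the 17 alternatives. *Pgam1*, the mutase before enolase, was higher in *KD1* (0.32, adjusted p = 0.0027) and at -0.04 in *KD2* (adjusted p = 0.65), where its sign changed under other settings. *Eno1*, the main enolase, was lower in *KD1* (-0.29, adjusted p = 0.0019) and at -0.13 in *KD2* (adjusted p = 0.093). Without *KD2* replicate 3 it was lower in *KD2* as well (-0.18, adjusted p = 0.00067).

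The other enolases changed more. *Eno3*, the muscle enolase, was at 12.4 ± 0.304 CPM in *WT*, 6.65 ± 0.486 in *KD1* and 62.9 ± 3.91 in *KD2* (SD, n = 3), lower in *KD1* (-0.90 ± 0.0883 SE, adjusted p = 9.6e-07) and higher in *KD2* (2.34 ± 0.0755 SE, adjusted p = 1.8e-11). *Eno2*, the neuronal enolase, rose from 0.989 ± 0.227 CPM to 2.55 ± 0.491 in *KD1* (1.35, adjusted p = 8.8e-05) and 8.17 ± 0.496 in *KD2* (3.03, adjusted p = 6.9e-09). *Ldhb*, the lactate dehydrogenase subunit that favours pyruvate formation, was chosen after its values were seen. Its level was 14.8 ± 1.00 CPM in *WT*, 9.93 ± 0.747 in *KD1* and 41.1 ± 3.44 in *KD2*, lower in *KD1* (-0.58, adjusted p = 1.2e-04) and higher in *KD2* (1.46, adjusted p = 4.6e-09).

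The other hexose transporters were all scarce, and 6 of 13 were tested. Of these, 5 were higher and 1 lower in *KD1*, and 5 were higher in *KD2*. *Slc2a4*, *Slc2a5*, *Slc2a6* and *Slc5a1* had 16 counts or fewer in each *WT* culture and passed the filter on low counts only through the edited lines. The filter thus favoured a higher call for them, and these counts are no result about the list. *Slc2a5*, the fructose transporter GLUT5, was at 0.174 ± 0.0722 CPM in *WT*, 1.68 ± 0.291 in *KD1* and 0.495 ± 0.187 in *KD2*. *Slc2a6* was at 0.0696 ± 0.0820 CPM in *WT*, 0.726 ± 0.0541 in *KD1* and 3.71 ± 0.606 in *KD2*. Both were called higher in both lines (adjusted p at most 0.0065), at levels far under that of *Slc2a1*. The remaining tested genes, *Slc2a8* and *Slc2a9*, passed the filter on their *WT* counts and are given after their values were seen. *Slc2a9* rose from 0.964 ± 0.180 CPM to 7.485 ± 0.723 in *KD1* (2.94, adjusted p = 1.8e-09) and 3.93 ± 0.122 in *KD2* (2.01, adjusted p = 1.9e-07). *Slc2a8*, at 7.14 ± 0.988 CPM in *WT*, was lower in *KD1* (-0.62, adjusted p = 0.0017) and higher in *KD2* (0.94, adjusted p = 1.8e-05).

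Of the 5 enzymes that make and remove fructose bisphosphate signals to phosphofructokinase, *KD1* had 4 higher and 1 lower, and *KD2* had 3 higher and 1 lower. *Pfkfb4* rose from 2.02 ± 0.232 CPM to 10.1 ± 1.15 in *KD1* (2.32, adjusted p = 5.0e-09) and 8.17 ± 0.560 in *KD2* (2.02, adjusted p = 2.7e-08). *Pfkfb3*, the form with the strongest kinase activity, was at 7.04 ± 0.112 CPM in *WT* and was lower in *KD1* at 4.87 ± 0.387 (-0.53, adjusted p = 4.5e-04) and higher in *KD2* at 16.0 ± 0.663 (1.18, adjusted p = 6.3e-08).

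The pyruvate dehydrogenase complex and its regulators, the partners of *Pdk1*, were mostly lower in *KD2*. Of 11 such genes, all tested, 9 were lower and 1 was higher in *KD2*, with a median of -0.76, where 33.3% of all tested genes were lower. Among the lower ones, *Pdha1* (-0.84) and *Pdk3* (-0.98) lie on chromosome X, whose median in *KD2* was -0.63. The part of that shift in their values was not tested. In *KD1*, 6 were lower and 3 higher, with a median of -0.20, where 30.0% of all tested genes were lower. *Pdk4*, the kinase linked to fasting, was at 0.531 ± 0.128 CPM in *WT* and 4.23 ± 0.252 in *KD1* (2.97, adjusted p = 9.3e-08), and in *KD2* it was at 0.0439 ± 0.050 CPM, at or under the floor of 3 counts. *Pdk4* had 16 counts or fewer in each *WT* culture and passed the filter on low counts only through *KD1*. The filter thus favoured its higher call in *KD1*, which is among the 3 of this list there. *Pdk2* was lower in *KD1* (-0.89, adjusted p = 7.9e-04) and higher in *KD2* (1.36, adjusted p = 2.3e-06), and its mean stayed under 7 CPM in all lines. Of the 7 genes of pyruvate and lactate transport 6 were tested, and 4 were lower in *KD1* and 2 in *KD2*, with 1 higher in each. The higher gene, *Slc16a3*, had 12 counts or fewer in each *WT* culture and passed the filter on low counts only through the edited lines.

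Known regulators of the pathway did not move in one direction. Of 14, 13 were tested, and the counts were 5 higher and 4 lower for *KD1*, beside 2 higher and 7 lower for *KD2*. *Hif1a*, the oxygen-regulated subunit of HIF1, was at 186 ± 6.69 CPM in *WT*, higher in *KD1* at 305 ± 8.31 (0.72, adjusted p = 7.9e-06) and at 170 ± 25.1 in *KD2* (-0.13, adjusted p = 0.21). *Myc* was lower in both lines, from 221 ± 14.8 CPM to 124 ± 2.70 in *KD1* (-0.83, adjusted p = 3.4e-08) and 81.8 ± 0.960 in *KD2* (-1.43, adjusted p = 2.0e-10). *Txnip*, whose protein restrains glucose uptake and whose RNA is known to follow glucose through the MLX factors, fell from 157 ± 5.58 CPM to 37.5 ± 0.908 in *KD1* (-2.07, adjusted p = 6.4e-12) and 92.5 ± 6.57 in *KD2* (-0.76, adjusted p = 1.3e-07). *Arrdc4*, the paralogue of *Txnip*, rose in *KD1* from 37.2 ± 5.18 to 138 ± 2.47 CPM (1.90, adjusted p = 2.4e-10) and fell in *KD2* to 23.96 ± 1.42 (-0.63, adjusted p = 2.8e-05). *Txnip* and *Arrdc4* thus moved in opposite directions in *KD1*.

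HIF1 targets outside glycolysis were 17, of which 16 were tested. In *KD1*, 10 were higher and 3 lower, with a median of 0.38, and in *KD2*, 7 were higher and 5 lower, with a median of 0.17. *Ero1l*, an oxidase of the endoplasmic reticulum, went with *Slc2a1* and *Hk2*, higher in *KD1* (0.36, adjusted p = 0.013) and lower in *KD2* (-1.61, adjusted p = 3.0e-08). The call of *Ero1l* in *KD1* was lost without *WT* replicate 2 (0.27, adjusted p = 0.052). *Car9*, a carbonic anhydrase widely used as a marker of HIF1 activity, was at 4.21 ± 0.856 CPM in *WT*, 3.42 ± 0.371 in *KD1* (-0.31, adjusted p = 0.10) and 16.0 ± 1.03 in *KD2* (1.91, adjusted p = 2.3e-08). Over all 10 lists beside the 10 genes, 94 of 115 genes were tested, and 41 were up and 31 down for *KD1*, 37 up and 36 down for *KD2*, with medians of 0.10 and -0.03.

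**Figure D5:**
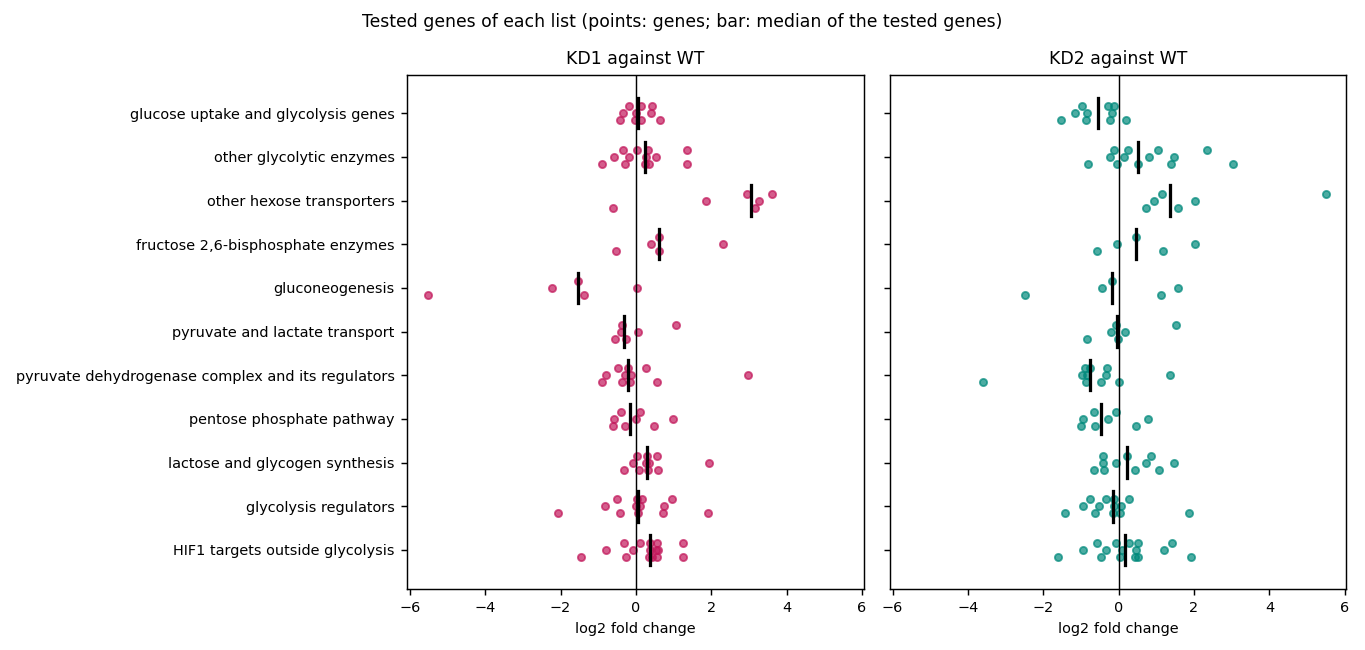
Log2 fold change against *WT* (x axis) of the tested genes of each list (y axis) in *KD1* and *KD2*, with points for genes and a bar at the median of the tested genes. The 10 glucose uptake and glycolysis genes have a median of 0.06 in *KD1* and -0.56 in *KD2*, where the pyruvate dehydrogenase list is at -0.76 and the other glycolytic enzymes are at 0.50.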

How the data were processed

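RNA from 9 cultures of undifferentiated HC11 cells, 3 per line, was sequenced by the authors as paired-end reads from polyA-selected libraries (NEBNext Ultra). The authors trimmed and filtered reads with fastp, ran HISAT2 against GRCm38, and summed exon reads for each gene by featureCounts (Subread). They deposited raw whole-number counts for 55228 genes, without normalization. Handling of strand and of reads with several matches is not given in the sources used here. The labels state that lysates were flash frozen and the methods state that they were not. No column of the table was without a culture (0 columns).

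Depth was 19231428 to 28360592 counts per culture, and a group with 3 counts or fewer in each library is given as at or under the floor. The quasi-likelihood test of edgeR 4.0.16 (R 4.3.3) was applied here to the counts of all 9 cultures in 1 fit, after TMM scaling and filterByExpr, with Benjamini-Hochberg adjustment over 15253 genes. Calls were made at an adjusted p under 0.05, and are named over 2-fold where the absolute log2 fold change was also above 1. CPM values are mean and SD over 3 cultures. Standard errors come from the log2 fold change and the F statistic. Ratios of isozymes were compared by exact permutation tests, which cannot go below 0.1. The script was tested on simulated counts.

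The members and the lists were chosen with earlier results of these data known. Genes named beside the 10 are *Gpi1*, *Tpi1*, *Gapdh*, *Pgam1*, *Eno1*, *Hif1a*, *Myc*, *Txnip* and *Vangl2*, and in each list the 2 with the largest change among those past 2-fold in *KD1* or *KD2* with at least 1 CPM in a group. Lengths, positions and windows of 50 bases shared between genes come from the GENCODE annotation and transcripts of GRCm38, and upstream sequence comes from RefSeq (GRCm38.p6).

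The 17 alternative fits were DESeq2 1.42.0, median-of-ratios factors, library size alone, no filter on low counts, at least 10 counts in every culture, only the 6 cultures compared, the replicate number as a block, the 9 fits that each omit 1 culture and, chosen after seeing the data, *WT* replicate 1 and *KD2* replicate 3 left out together.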

Additional observations from a re-analysis of the deposited data

Results flagged for a closer look

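*KD2* and *KD1* differed in all 10 genes by the edgeR test of *KD2* against *KD1*, with the adjusted p-values over 15253 genes. Most tested genes also differed between these lines, with 34.8% of all genes higher and 33.0% lower in *KD2*. *KD2* lay below *KD1* by a log2 fold change of -1.51 for *Slc2a1* (adjusted p = 6.7e-11), -1.37 for *Hk2* (6.9e-11), -1.14 for *Pdk1* (7.3e-08), -1.11 for *Pfkp* (1.8e-09) and -0.64 for *Pgk1* (7.4e-08), and in these genes all *KD2* cultures were below all *KD1* cultures. Smaller differences in the same direction were found for *Pfkl* (-0.41, adjusted p = 0.0024), *Hk1* (-0.37, adjusted p = 0.0012), *Aldoa* (-0.22, adjusted p = 0.018) and *Ldha* (-0.16, adjusted p = 0.036). *Pkm* was higher in *KD2* by 0.22 (adjusted p = 0.015), a call lost without *KD1* replicate 1 (0.21, adjusted p = 0.055). The call of *Ldha* was lost in 7 of the 17 alternatives and that of *Aldoa* in 3. Each line is 1 clone, so a difference between lines and one between clones cannot be told apart.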

How the results depend on the processing

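Of the 30 log2 fold changes of the 10 genes (3 comparisons), 19 kept their direction and their side of the threshold in all 17 alternative fits. In *KD2* against *WT* the number of lower genes was 5 with library size alone and 5 with at least 10 counts in every culture, and 5 to 9 with 1 culture left out. The number of higher genes there was 0 with only the 6 cultures compared, 0 without *WT* replicate 1 and *KD2* replicate 3, and 0 to 1 with 1 culture left out. In *KD2* against *KD1* it was also 0 to 1, with 0 without *KD1* replicate 1. Library size alone moved the median of all genes by 0.11 in *KD2* against *WT* and 0.13 against *KD1*.

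Values near 0 changed sign. For *Ldha* in *KD1* the log2 fold change was 0.01 with DESeq2, 0.03 with the filter of 10 counts in every culture, 0.02 with median-of-ratios factors, 0.01 with no filter on low counts, 0.04 with only the 6 cultures compared and -0.03 to 0.04 with 1 culture left out. For *Pdk1* in *KD1* it was 0.00 with at least 10 counts, 0.01 with only the 6 cultures and -0.13 to 0.07 with cultures left out. For *Pgam1* in *KD2* it was 0.03 with at least 10 counts, 0.07 with library size alone and -0.19 to 0.03 with cultures left out. For *Tpi1* in *KD2* it was -0.04 to 0.23, for *Hif1a* in *KD2* -0.21 to 0.01 and for *Vangl2* in *KD2* -0.10 to 0.13 with cultures left out. Between *KD2* and *KD1*, *Gpi1* was at 0.02 with at least 10 counts, 0.11 with library size alone and -0.08 to 0.03 with cultures left out, and *Gapdh* was at 0.08 with library size alone and -0.18 to 0.05 with cultures left out. Less its chromosome's median, *Pkm* was at -0.03 between *KD2* and *KD1*. The cause was not tested.

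Chromosome medians are given only for the chromosomes that hold a member. The lowest of these in *KD2* against *WT* was -0.55 with library size alone and -0.38 with no filter on low counts. The highest was 0.34 and 0.31. Against *KD1* the lowest was -0.49 and -0.48. Replicate numbers did not pair the cultures: cultures with the same number, centred on their line's mean, correlated at -0.0652 to 0.0789 over 9 pairs, and the replicate block gave 3 genes up and 3 down for *KD1*, 1 up and 8 down for *KD2*, and 1 up and 9 down between *KD2* and *KD1*. No call of the 10 genes changed under the block. Depth left the 10 genes at 206 or more counts in every culture, whereas *Slc2a5*, *Slc2a6*, *Fbp1* and *Pdk4* had a group at a few counts per culture.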

Other observations

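The counts of genes called in routes that branch from glycolysis stand beside 26.9% higher and 30.0% lower among all tested genes in *KD1*, and 34.0% and 33.3% in *KD2*. Of 7 genes of gluconeogenesis 5 were tested, and 4 were lower in *KD1*, while 2 were higher and 2 lower in *KD2*. *Pck2*, the mitochondrial enzyme that makes phosphoenolpyruvate, fell from 250.3 ± 4.23 CPM in *WT* to 95.7 ± 2.18 in *KD1* (log2 fold change -1.39, adjusted p = 5.6e-10) and 44.6 ± 4.50 in *KD2* (-2.49, adjusted p = 5.3e-12). *Fbp1*, which reverses the phosphofructokinase step, was at 1.39 ± 0.632 CPM in *WT*, at 0.0254 ± 0.0220 CPM in *KD1*, under the floor of 3 counts, and at 3.10 ± 0.0793 CPM in *KD2* (1.13, adjusted p = 0.0015). Of 8 genes of the pentose phosphate pathway, which makes NADPH and ribose, 2 were higher and 4 lower in *KD1*, and 2 were higher and 5 lower in *KD2*.

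Of 13 genes of lactose and glycogen synthesis 11 were tested, and *KD1* had 5 up and 1 down, *KD2* 6 up and 4 down. *Ugp2*, which makes the UDP-glucose used for both sugars, was at 264 ± 15.8 CPM in *WT*, 211 ± 8.96 in *KD1* (-0.32, adjusted p = 0.0060) and 729 ± 101 in *KD2* (1.47, adjusted p = 6.0e-09). *Gbe1*, the glycogen branching enzyme, rose from 16.5 ± 1.61 CPM to 63.1 ± 1.18 in *KD1* (1.93, adjusted p = 4.5e-10) and 26.9 ± 3.33 in *KD2* (0.71, adjusted p = 1.6e-05). *Lalba*, whose protein is needed to make lactose, was at 0 counts in every culture.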
